A study of Rattus norvegicus with 6 samples.

Results

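The Hox genes of rat spinal cord were followed across 6 one-colour microarrays, 1 array for each of 6 experimental conditions. Members were the targets whose gene name on the array, after removal of the endings for predicted or mapped genes, was Hoxa, Hoxb, Hoxc or Hoxd and a number. The rule found 29 targets, read by 32 probes, among 36410 targets on the array. A target is 1 transcript identifier, and where several probes read it the brightest one represented it. All RNA came from formaldehyde-fixed, paraffin-embedded spinal cord of adult Lewis rats. In 3 conditions T cells specific for myelin basic protein were transferred on day 0. On day 4 these animals received NMO-IgG (ENMO), the human control IgG Subcuvia (EAEcoI) or PBS (EAEcoP). In 2 further conditions rats without T cells received NMO-IgG only or control IgG only, and healthy control rats were left untreated. NMO-IgG is human IgG of a patient with neuromyelitis optica and carries antibodies to the astrocyte water channel aquaporin 4. Treated animals were killed 24 hours after the antibody or PBS. Each array held 1 pool of 5 rats (3 rats for the healthy control) with 25 cross sections per rat taken along the whole cord, so that differences between animals were averaged into 1 value. There were therefore no replicates of a condition and no error between animals.

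Hox genes encode homeodomain transcription factors and lie in 4 clusters, A to D. Members of different clusters with the same number are paralogues, and the order of genes along a cluster matches the order in which they are expressed from head to tail in the embryo. Low-numbered paralogues pattern the hindbrain, middle ones the neck and forelimb levels of the cord, and high-numbered ones the trunk, hindlimb and tail levels. In the spinal cord they are known for giving motor neurons of each segment their identity, and part of this code persists in adult tissue. Comparing the paralogues between arrays addresses whether the pools matched in spinal level, since the number of sections per level is not given in the sources used here.

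Values are normalized signal intensity (NSI), the scanner software's background-subtracted signal after quantile normalization over the 6 arrays, in arbitrary units. Because probes differ in how they bind, NSI was compared only between arrays for the same target. A target counted as measured on an array where the scanner software marked it as well above background. This held for 35.4% to 60.2% of spots per array, with the lowest share on control IgG only and the highest on EAEcoP. The only error at hand was that between repeated spots. Over 263 probes with 10 spots each, the SD of a difference between 2 arrays was 0.769 on the log2 scale, or 1.7-fold, and it covers neither animals nor amplification. Dim spots are part of this value, which is called the spread between spots below. Over spots well above background alone it was 0.515, or 1.43-fold. The labelled tissue was checked by marker genes: 10 of 10 oligodendrocyte genes, 8 of 10 astrocyte genes, 12 of 14 neuron genes and 12 of 12 motor neuron genes passed this limit on 1 or more arrays. Of 18 homeobox genes of forebrain and midbrain, 17 also passed on 1 or more arrays and 8 on all 6, so that such calls alone did not separate spinal cord from brain.

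The results turned on 10 Hox probes, and their sequences are shown so that the reader can see what was measured and how much related genes share. Each probe has 60 bases. Capitals mark the longest run of bases that the probe shares with a probe of any other Hox target. Of 496 pairs of Hox probes none shared more than 17 bases in a row, a length reached by Hoxb6 with Hoxc6 and by Hoxc6 with Hoxb7. Such a run ends at the first differing base, so it understates how alike probes are. Laid side by side, the Hoxb6 and Hoxb7 probes match at most of their bases. Whether a probe also binds RNA of a related Hox gene was not tested. Positions are those the array design gives on the rat genome, whose build version is not given in the sources used here, and whether a probe lies in coding sequence or a UTR was not looked up. Positions on chromosome 10 were chr10:85099338-85099397 for Hoxb1, chr10:85032800-85032859 for Hoxb6, chr10:85020148-85020207 for Hoxb7 and chr10:85014999-85015058 for Hoxb8, all on the plus strand. On chromosome 7, plus strand, they were chr7:141774182-141774241 for Hoxc6, chr7:141747571-141747630 for Hoxc9 and chr7:141702004-141702063 for Hoxc12. On chromosome 4, minus strand, they were chr4:80517304-80517363 for Hoxa7 and chr4:80524280-80524339 for Hoxa9, and on chromosome 3, plus strand, chr3:57313651-57313710 for Hoxd9.
The first 5 belong to targets described for arrays with and without T cells.
Hoxb1: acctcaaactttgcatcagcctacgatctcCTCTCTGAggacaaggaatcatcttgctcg
Hoxb6: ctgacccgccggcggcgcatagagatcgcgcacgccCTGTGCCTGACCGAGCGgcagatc
Hoxc6: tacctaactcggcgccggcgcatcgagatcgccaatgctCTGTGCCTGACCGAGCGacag
Hoxb7: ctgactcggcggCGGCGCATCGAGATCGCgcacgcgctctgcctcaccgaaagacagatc
Hoxb8: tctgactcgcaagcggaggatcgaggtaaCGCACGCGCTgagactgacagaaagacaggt
The next 2 both carry the name Hoxa9 on the array. The target of the first, NM_001109233, is Hoxa7 in the RefSeq gene table and is called Hoxa7 here.
Hoxa7: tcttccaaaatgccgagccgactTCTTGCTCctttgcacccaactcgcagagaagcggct
Hoxa9: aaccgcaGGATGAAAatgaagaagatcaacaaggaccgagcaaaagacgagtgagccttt
The last 3, with Hoxa9, belong to the targets that stood highest on control IgG only by more than 2-fold.
Hoxc9: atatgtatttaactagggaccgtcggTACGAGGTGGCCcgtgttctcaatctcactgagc
Hoxd9: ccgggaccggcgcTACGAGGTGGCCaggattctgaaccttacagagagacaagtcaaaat
Hoxc12: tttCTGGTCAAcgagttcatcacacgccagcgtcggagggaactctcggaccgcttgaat
The array names the Hoxc9 target Hoxc9 but describes it as Hoxc8, which the RefSeq table lists as a synonym of Hoxc9 and also as a gene of its own, so the name is kept with that doubt. The Hoxc9 and Hoxd9 probes share a run of 12 bases, and the Hoxa9 and Hoxc12 probes share no run longer than 8 with a probe of any other Hox target.

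Of the 29 Hox targets, 27 passed the background limit on 1 or more arrays, against 68.5% of all targets, and 19 passed it on all 6, against 30.4% of all targets. These 19 included paralogues of every level from hindbrain to tail. The targets never well above background were Hoxd10 and Hoxd12, a hindlimb-level and a tail-level gene. Per array, 20 to 27 Hox targets were measured. The lowest number was on NMO-IgG only and the highest on EAEcoP, the array on which the share of all spots well above background was also highest. Paralogues 1 to 5 were measured alike, with 11 targets on 5 arrays and 12 on EAEcoP. Paralogues 9 to 13 varied more, with 6 targets on healthy control, 9 on control IgG only, 5 on NMO-IgG only, 10 on EAEcoP, 8 on EAEcoI and 7 on ENMO. Control IgG only thus had more posterior Hox targets measured than 4 of the other arrays, although it had the lowest share of spots well above background.

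**Figure D1:**
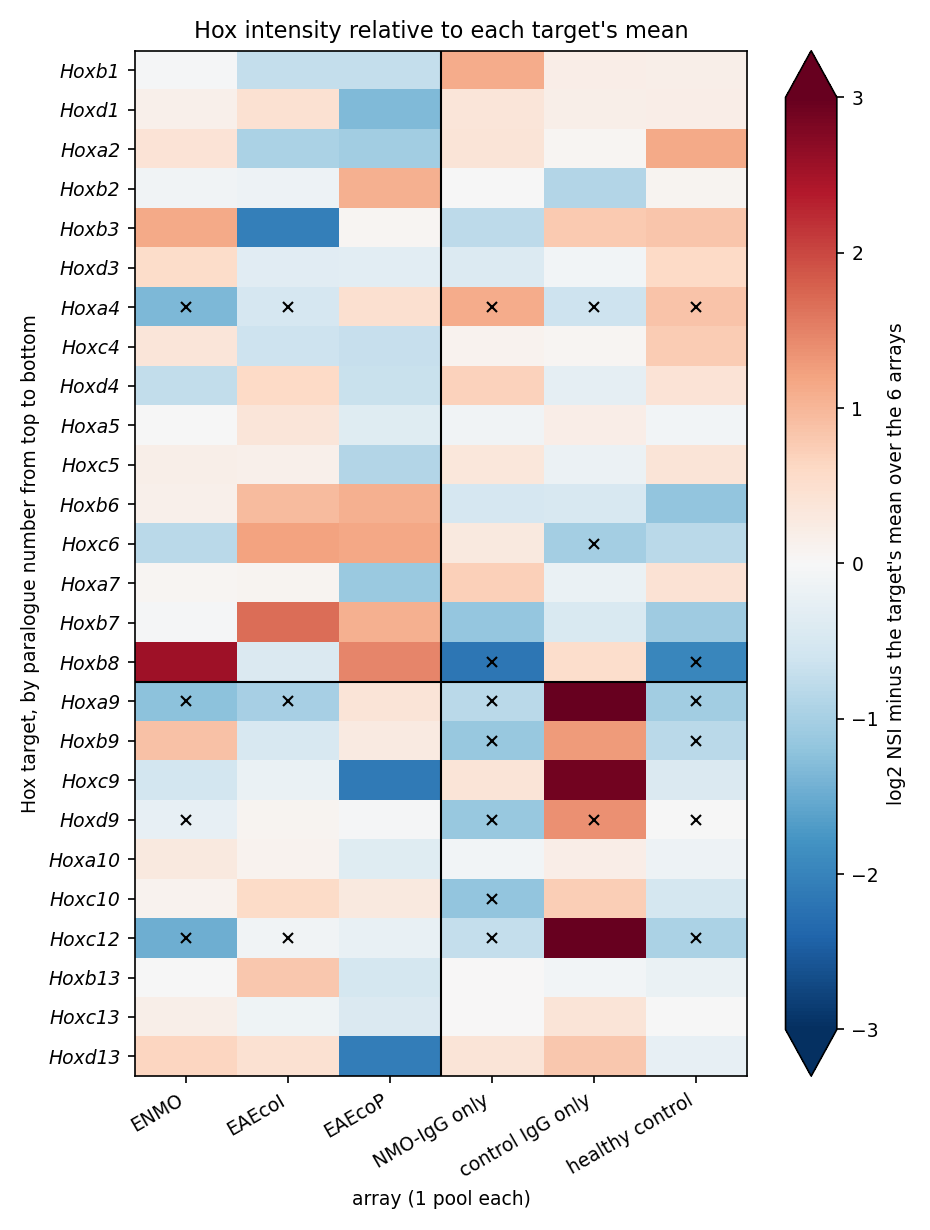
Each row is a named Hox target well above background on at least 1 array, ordered by paralogue number, each column is 1 array, and colour gives the log2 NSI minus the target's mean over the 6 arrays, while a cross marks a value not well above background. The horizontal line separates paralogues 8 and 9, the vertical line the arrays with T cells (left) from those without. The darkest red cells below the horizontal line are Hoxa9, Hoxc9 and Hoxc12 on control IgG only.

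The posterior genes, paralogues 9 to 13, showed the most marked difference between arrays: 8 of the 10 measured targets had their highest NSI on control IgG only, where 14.2% of all 24759 measured targets with a value on every array did. None of the 17 targets of paralogues 1 to 8 was highest there. This grouping was made after the values had been seen, it concerns 1 array, and no test was run on it. In bulk RNA of this kind, more cells of a type and more RNA per cell cannot be told apart. More than 2-fold above every other array stood 4 targets, Hoxa9, Hoxc9, Hoxd9 and Hoxc12, against 1.14% of all targets.

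Hoxc9, which gives motor neurons their thoracic identity and holds back the forelimb program there, was measured on all 6 arrays. Its NSI was 62.2 in healthy control, 617 in control IgG only, 109 in NMO-IgG only, 19.3 in EAEcoP, 73.2 in EAEcoI and 56.9 in ENMO. Control IgG only was 5.66-fold above the next array, NMO-IgG only, and 31.9-fold above the lowest, EAEcoP, the widest range among the 19 Hox targets measured everywhere. The 5 other arrays lay between 19.3 and 109. Hoxa9, a thoracic-level gene also known from blood cell progenitors, had an NSI of 2.82 in healthy control, 73.9 in control IgG only, 3.29 in NMO-IgG only, 7.6 in EAEcoP, 2.92 in EAEcoI and 2.47 in ENMO. Only EAEcoP and control IgG only were well above background, and the latter was 9.72-fold higher. Set against the geometric mean of the other 5 arrays, each taken at no less than its lowest signal well above background, Hoxa9 was at least 8.73-fold higher on control IgG only. Hoxc12, one of the most posterior genes of the C cluster, had an NSI of 7 in healthy control, 146 in control IgG only, 8.15 in NMO-IgG only, 11.6 in EAEcoP, 12.6 in EAEcoI and 4.87 in ENMO. Again only EAEcoP and control IgG only were well above background, and control IgG only was at least 13.7-fold above the same kind of mean of the other 5. For these 3 genes control IgG only was the highest array under all 6 alternative ways of processing. Its ratio to the next array then ranged from 3.05 to 6.41 for Hoxc9, from 1.45 to 10 for Hoxa9 and from 2.62 to 14.8 for Hoxc12.

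The other 2 targets of the ninth paralogue group pointed less clearly to 1 array. Hoxb9, a trunk-level gene, had an NSI of 16.4 in healthy control, 69.5 in control IgG only, 13.1 in NMO-IgG only, 35 in EAEcoP, 20.7 in EAEcoI and 52.9 in ENMO. It was not well above background on NMO-IgG only and healthy control, and control IgG only was 1.31-fold above ENMO, a step smaller than the spread between spots. Hoxd9, known from limb and lower trunk levels, had an NSI of 10.8 in healthy control, 28.3 in control IgG only, 4.95 in NMO-IgG only, 10.7 in EAEcoP, 11.7 in EAEcoI and 9.18 in ENMO. It was well above background on EAEcoI and EAEcoP and not on control IgG only, where its signal was 2.41-fold above the next array, so this highest value rests on a spot that did not pass.

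Among the hindlimb-level genes, Hoxa10 varied least of all Hox targets measured on every array. Its NSI was 93.4 in healthy control, 118 in control IgG only, 97.3 in NMO-IgG only, 79.9 in EAEcoP, 110 in EAEcoI and 127 in ENMO. This range of 1.6-fold did not exceed the spread between spots, but it exceeded the 1.43-fold spread of spots well above background. The older identifier of this target is in RefSeq a synonym of Hoxa11, so that its name is not certain. A second Hoxa10 probe was well above background on no array, with values between 1.73 and 2.43. Hoxc10, which marks lumbar motor neurons, had an NSI of 16.9 in healthy control, 40.3 in control IgG only, 10.7 in NMO-IgG only, 29.6 in EAEcoP, 36.5 in EAEcoI and 26.3 in ENMO. It was not well above background on NMO-IgG only, and control IgG only exceeded EAEcoI by 1.1-fold.

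The genes of the last paralogue group, which act at the tail end of the axis and in limbs and skin, were measured on all arrays. Hoxb13, known from tail bud and prostate, had an NSI of 28.7 in healthy control, 31.1 in control IgG only, 33.2 in NMO-IgG only, 22.7 in EAEcoP, 57.9 in EAEcoI and 32.6 in ENMO. It was the one target of this group that was highest on another array, EAEcoI. Hoxc13, known from hair follicles, had an NSI of 27.3 in healthy control, 35.7 in control IgG only, 27.5 in NMO-IgG only, 20.3 in EAEcoP, 24.9 in EAEcoI and 30.8 in ENMO. Its whole range was 1.76-fold, against a spread between spots of 1.7-fold, or 1.43-fold for spots well above background. Hoxd13, which shapes the digits, had an NSI of 61.1 in healthy control, 127 in control IgG only, 94.9 in NMO-IgG only, 17.1 in EAEcoP, 99.9 in EAEcoI and 114 in ENMO. Here EAEcoP stood 7.43-fold under control IgG only, and the order of the upper 4 arrays lay within the spread between spots.

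**Figure D2:**
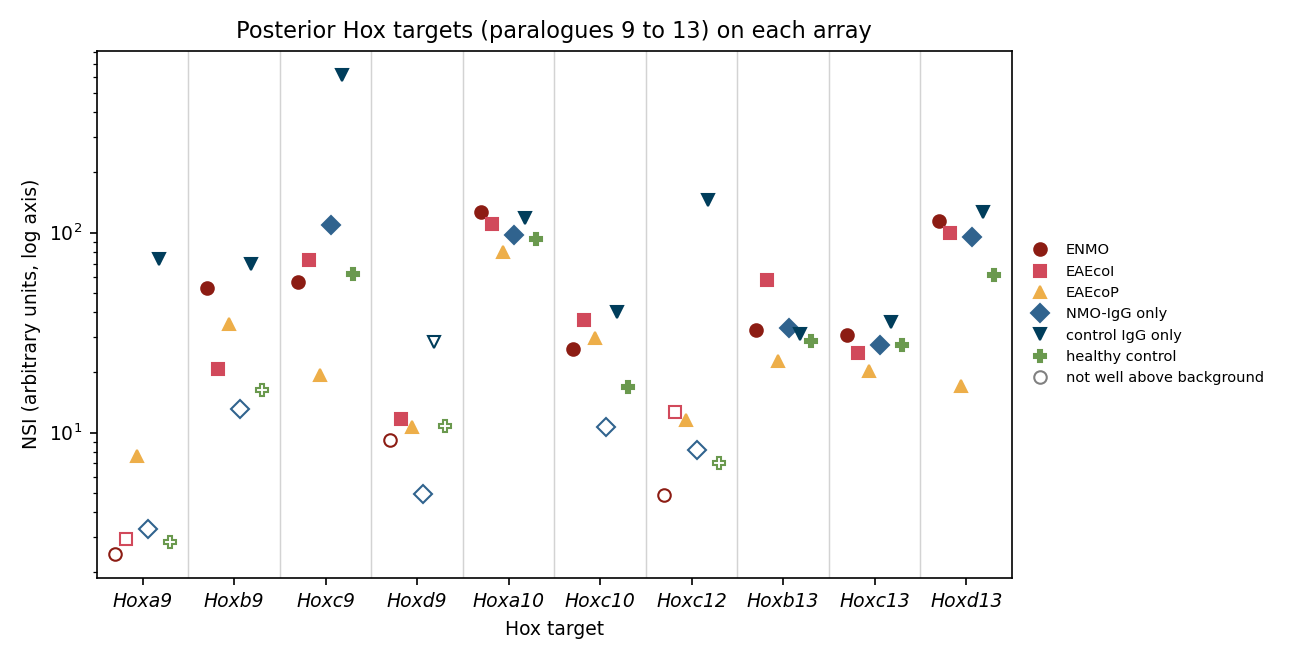
NSI (log axis, arbitrary units) of the 10 measured Hox targets of paralogues 9 to 13, 1 point per array, open where the spot was not well above background; heights can be compared within a gene only. Hoxa9 at 73.9, Hoxc9 at 617 and Hoxc12 at 146 on control IgG only stand apart from their other 5 points, while Hoxa10 and Hoxc13 vary little.

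Several measured facts stand beside the high posterior values of control IgG only. After removal of a smooth local trend from each array, control IgG only was highest in 6 of the 10 posterior targets, namely Hoxa9, Hoxc9, Hoxd9, Hoxa10, Hoxc12 and Hoxc13. The local trend on that array was 0.55 on the log2 scale at the Hoxc9 spot, 0.33 at the Hoxa9 spot and -0.28 at the Hoxc12 spot. With the authors' values that were not normalized between arrays, 3 of 10 were highest there, namely Hoxa9, Hoxc9 and Hoxc12. On slide 1, which also carried ENMO and EAEcoP, the mean of those 2 arrays minus control IgG only was -4.22 for Hoxc9 on the log2 scale, and for Hoxa9 and Hoxc12 ENMO was not well above background. Markers of neighbouring tissue did not set this array apart by their summed NSI. Over 11 genes of Schwann cells and meninges the sum was 1864 on control IgG only and 1411 to 2470 on the others, with 10 of 11 measured on at least 1 array and Egr2 on none. Over 9 genes of skeletal muscle and bone the sum was 548 on control IgG only and 317 to 573 on the others, with 6 of 9 measured and Tnnt3, Ibsp and Myh4 on no array. The median difference of control IgG only from the mean of the other arrays was 0.68 for the first list and 0.75 for the second on the log2 scale, against 0 over all measured targets. Of the neuron genes, 4 of 10 tested were highest on control IgG only, and 3 of 12 motor neuron genes, where 14.2% of all measured targets were. Among them the neurofilament gene Nefh had an NSI of 481.7 on control IgG only and 13.2 to 105.3 on the others. The median differences of these lists were -0.06 and -0.26. The part of neurons, nerve root, muscle or bone in the Hox values was not tested.

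The anterior genes behaved otherwise. Of the 12 measured targets of paralogues 1 to 5, 5 were highest on healthy control (41.7%, against 15.2% of all measured targets), 3 on NMO-IgG only and none on control IgG only. They included Hoxa2, which patterns the hindbrain, and Hoxc4, a neck-level gene, where healthy control exceeded the next array by 1.66-fold and 1.32-fold. In Hoxd3 and Hoxc5 the next array was within 1.03-fold. Among the 5 targets of paralogues 6 to 8, the highest array was EAEcoI for Hoxc6 and Hoxb7, EAEcoP for Hoxb6, NMO-IgG only for Hoxa7 and ENMO for Hoxb8.

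**Figure D3:**
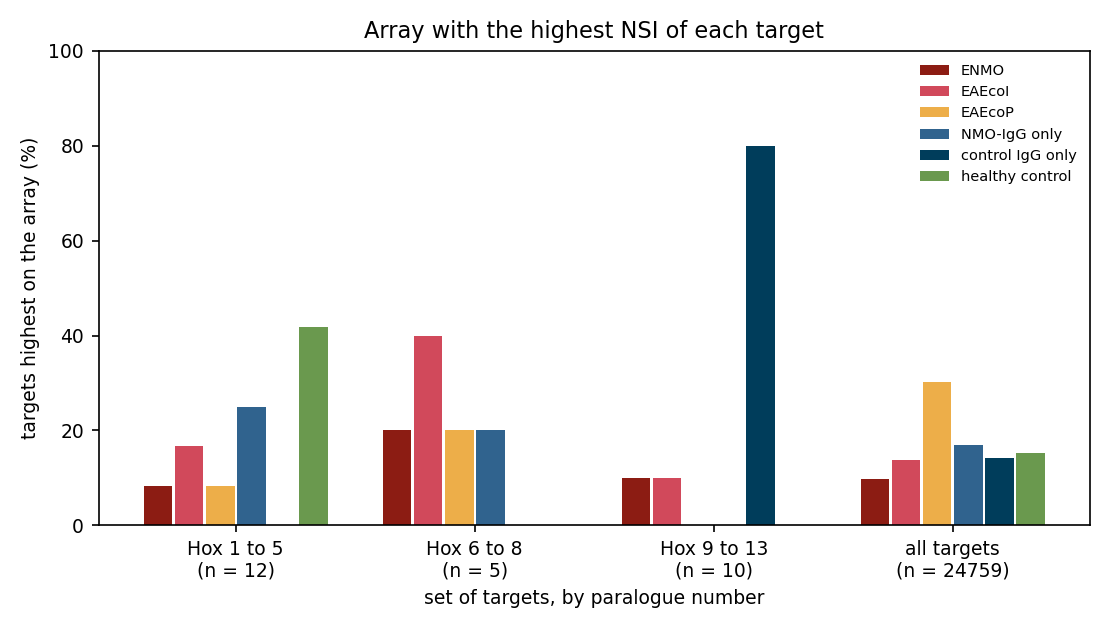
Bars give the percentage of targets whose highest NSI fell on each array, for Hox targets of paralogues 1 to 5, 6 to 8 and 9 to 13 and for all measured targets. Control IgG only holds 80% of the posterior set and 14.2% of all targets, and EAEcoP holds the largest share of all targets, 30.1%.

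To put spinal level into 1 number per array, each of the 19 Hox targets measured on all 6 arrays was expressed as its log2 deviation from its own mean. The median over the 4 targets of paralogues 10 to 13 minus the median over the 7 targets of paralogues 4 to 7 was -0.55 in healthy control, 0.49 in control IgG only, -0.10 in NMO-IgG only, 0.19 in EAEcoP, -0.07 in EAEcoI and 0.17 in ENMO. Relative to paralogues 4 to 7, caudal genes thus stood highest on control IgG only and lowest on healthy control, and the 3 arrays with T cells lay between these extremes. In the authors' values that were not normalized between arrays, EAEcoP was highest at 0.44, against 0.34 for control IgG only. A scale factor per array cancels in this difference, but those values also treat targets with several probes otherwise. After scaling to the 75th percentile, with the brightest probe kept, EAEcoP was at 0.29 and control IgG only at 0.37. The whole range of 1.03 rested on control IgG only and healthy control: it was 0.52 without the former and 0.66 without the latter. Each of the 6 values was smaller in size than 0.769, the SD of a difference between 2 arrays from repeated spots, while their range of 1.03 was larger. That SD holds for single spots and is not the error of a median over several targets, so it cannot judge these values. The caudal median alone was much the same on control IgG only (0.29), EAEcoI (0.28) and ENMO (0.24). The median of paralogues 4 to 7 was -0.2 on control IgG only, 0.36 on EAEcoI and 0.07 on ENMO. Hoxc9 was not part of either median. The 7 hindbrain-level targets deviated by a median of 0.59 on healthy control, the highest of the 6 arrays, and by -0.72 on EAEcoP, where the median over all targets measured on every array was -0.53.

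**Figure D4:**
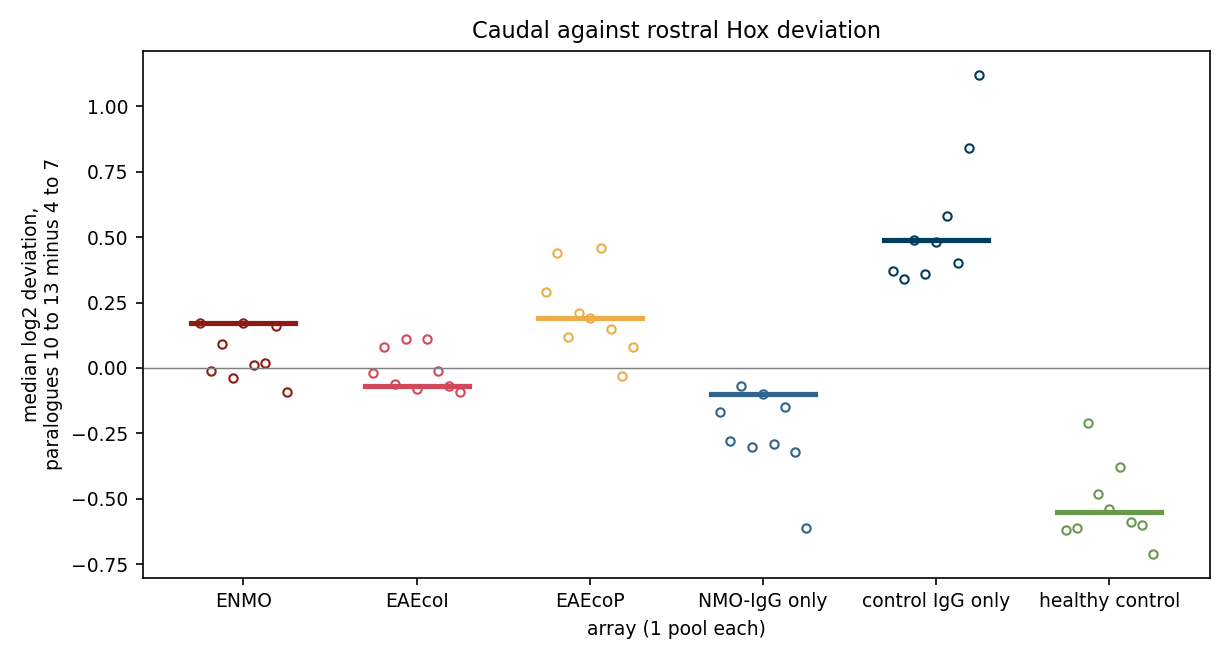
Thick bars give, for each array, the median log2 deviation of Hox paralogues 10 to 13 minus that of paralogues 4 to 7, over targets well above background on all 6 arrays. Open points give the same under 9 other choices of normalization, filter or paralogue range. Control IgG only is above 0 and healthy control below 0 under all of them. EAEcoP is highest, at 0.44, in the authors' values, which lack normalization between arrays and treat targets with several probes otherwise.

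The study's main contrast sets the 3 arrays with T cells against the 3 without. In a limma fit over all 24759 measured targets, with Benjamini-Hochberg adjustment, no target was called (0%), and so none of the 27 Hox targets tested. At an unadjusted p under 0.05, 3 Hox targets were higher with T cells, where 8.24% of all targets were, and none was lower, where 3.15% of all were. These 3 were Hoxb6, Hoxb7 and Hoxb8, neighbours in the B cluster. The Hoxb6 and Hoxb7 probes also had the highest share of G and C bases of all Hox probes, 71.7% and 66.7%, with 56.7% for Hoxb8. The part of base content in these values was not tested. Among the 19 Hox targets measured everywhere, the 3 arrays with T cells stood above the 3 without in 2, against 8.06% of all such targets, and below them in 1, against 10.4%.

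Hoxb7, a gene of the lower neck and upper trunk, had an NSI of 573 in EAEcoP, 871 in EAEcoI and 267 in ENMO, and of 130 in healthy control, 200 in control IgG only and 122 in NMO-IgG only. The groups did not overlap, and the mean with T cells was 3.47-fold higher, a log2 difference of 1.80 with a standard error of 0.59 and a limma adjusted p of 0.309. Within slide 1 the log2 difference was 0.97 and within slide 2 it was 2.79. Hoxb6, its neighbour, had an NSI of 312 in EAEcoP, 284 in EAEcoI and 164 in ENMO, and of 65.3 in healthy control, 107 in control IgG only and 104 in NMO-IgG only. Its mean was 2.71-fold higher with T cells, a log2 difference of 1.44 with a standard error of 0.53 and a limma adjusted p of 0.361. The log2 difference was 1.08 within slide 1 and 1.78 within slide 2. Both genes kept their T cell arrays above the others under all 6 alternative ways of processing. Their probes are alike in sequence, and whether the readings were independent was not tested. In both, ENMO was the lowest of the 3 arrays with T cells.

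Hoxb1 went the other way. This gene, which specifies the part of the hindbrain that forms the facial nerve nucleus, had an NSI of 631 in EAEcoP, 630 in EAEcoI and 1012 in ENMO, and of 1174 in healthy control, 1190 in control IgG only and 2262 in NMO-IgG only. The mean was 1.99-fold lower with T cells, a log2 difference of -0.99 with a standard error of 0.54 and a limma adjusted p of 0.5. The groups did not overlap, but ENMO and healthy control differed by less than the spread between spots, and under 1 of the 6 alternative ways of processing, no normalization between arrays, the groups overlapped.

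Hoxb8 and Hoxc6 are given because their values were noticed, outside the rule for named genes. Hoxb8, whose loss makes mice groom to excess, had an NSI of 26.2 in EAEcoP, 7.08 in EAEcoI and 55.5 in ENMO, and of 2.44 in healthy control, 13.8 in control IgG only and 2.12 in NMO-IgG only. It was well above background on the 3 arrays with T cells and on control IgG only, which overlapped with EAEcoI. Its spot lies in row 1, the edge of the array. Hoxc6, which defines the motor neurons of the forelimb, had an NSI of 176 in EAEcoP, 181 in EAEcoI and 44.8 in ENMO, and of 45.2 in healthy control, 96.1 in NMO-IgG only and 39.1 in control IgG only, where it was not well above background. The highest values were on both EAE arrays, with NMO-IgG only next.

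**Figure D5:**
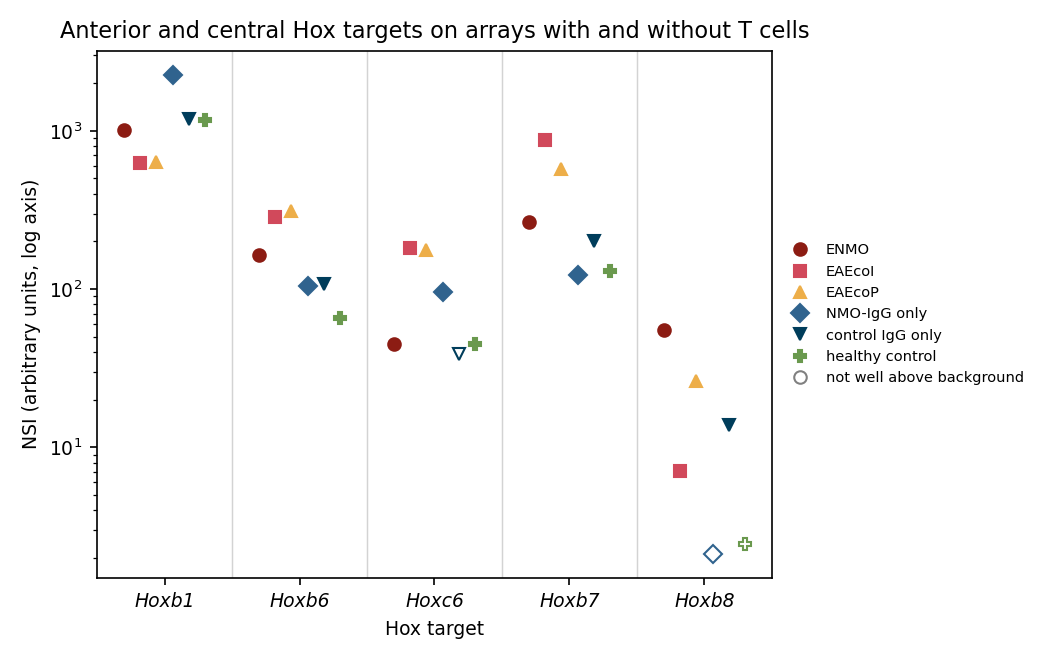
NSI (log axis, arbitrary units) of Hoxb1, Hoxb6, Hoxc6, Hoxb7 and Hoxb8, 1 point per array, open where the spot was not well above background; heights can be compared within a gene only. For Hoxb6 and Hoxb7 the 3 points of arrays with T cells (ENMO, EAEcoI, EAEcoP) lie above the 3 without, for Hoxb1 below, and for Hoxc6 and Hoxb8 the sets overlap.

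The median log2 difference with T cells over the 19 Hox targets measured everywhere was -0.48, with 5 of 19 above 0, beside a median of -0.29 with 3885 of 11076 above 0 over all targets so measured. Without EAEcoP the Hox median was -0.01, and in the authors' values that were not normalized between arrays it was 0.19, where the median over all measured targets was 0.69. For ENMO against both EAE arrays, limma called none of 24759 targets (0%), and 1 Hox target had an unadjusted p under 0.05, against 5.75% of all. This was Hoxc6, with a log2 difference of -1.99, a standard error of 0.82 and a limma adjusted p of 0.860. ENMO is a single array in this contrast, and its spread was taken to equal that of the other groups. In simulated data of the same size, limma called 52 of 100 targets changed 16-fold and 2 of 100 changed 4-fold with T cells and none for ENMO against EAE.

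The members varied over the arrays as much as other targets did. Of the 19, 17 had a range over the 6 arrays above the spread between spots, against 94.1% of all targets, and the median range was 1.84 on the log2 scale in both. After Hoxc9, the widest range was that of Hoxb3, which acts in the hindbrain. Hoxb3 had an NSI of 356 in healthy control, 345 in control IgG only, 116 in NMO-IgG only, 209 in EAEcoP, 48.5 in EAEcoI and 440 in ENMO, with EAEcoI the low array.

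For 3 targets the array held a pair of probes, and these did not always move together. For Hoxa5, which shapes the phrenic motor neurons that drive breathing, the brighter probe had an NSI of 355 in healthy control, 430 in control IgG only, 347 in NMO-IgG only, 288 in EAEcoP, 478 in EAEcoI and 368 in ENMO. Its second probe, also well above background on all 6 arrays, gave 41.9, 65.3, 136, 16.9, 19.7 and 57.6 in the same order. The first was highest on EAEcoI and the second on NMO-IgG only, so the pair named different arrays. For Hoxd1, an anterior gene also known from pain-sensing neurons, the brighter probe gave 136 in healthy control, 133 in control IgG only, 152 in NMO-IgG only, 47.6 in EAEcoP, 162 in EAEcoI and 131 in ENMO. The second Hoxd1 probe passed the background limit on ENMO and EAEcoI, at 11.6 and 17.7, and on no other array, while EAEcoP was the low array in both probes. For the targets that both bear the name Hoxa9, the one that RefSeq calls Hoxa7 had an NSI of 405 in healthy control, 263 in control IgG only, 498 in NMO-IgG only, 139 in EAEcoP, 321 in EAEcoI and 315 in ENMO. It was well above background everywhere and did not share the high value of Hoxa9 on control IgG only.

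The remaining measured targets included Hoxa2, Hoxb2, Hoxd3, Hoxa4, Hoxc4, Hoxd4 and Hoxc5. Apart from Hoxa4, measured on EAEcoP alone, these were well above background on all arrays. Their ranges over the arrays ran from 2-fold in Hoxd3 to 4.57-fold in Hoxa2, and in each the arrays with and without T cells overlapped.

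Of the 4 genes that stood highest on control IgG only by more than 2-fold, the RefSeq table used here holds promoters of Hoxa9 and Hoxd9, shown to set the regulatory sequence beside the values above. Each runs from 250 bases before to 50 after the start on assembly GRCr8, at chr4:82656999-82657298 on the minus strand for Hoxa9 and chr3:80007756-80008055 on the plus strand for Hoxd9. Capitals mark TAAT, the core bound by most homeodomains, and TTTATG, a core bound by caudal-type homeodomain (Cdx) and posterior Hox proteins, each on either strand.
Hoxa9 promoter: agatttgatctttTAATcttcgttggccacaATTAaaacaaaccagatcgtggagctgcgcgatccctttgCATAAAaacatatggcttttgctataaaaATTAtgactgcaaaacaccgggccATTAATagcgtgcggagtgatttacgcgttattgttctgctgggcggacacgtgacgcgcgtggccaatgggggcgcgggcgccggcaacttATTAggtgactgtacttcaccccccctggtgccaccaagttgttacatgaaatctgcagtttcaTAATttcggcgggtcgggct
Hoxd9 promoter: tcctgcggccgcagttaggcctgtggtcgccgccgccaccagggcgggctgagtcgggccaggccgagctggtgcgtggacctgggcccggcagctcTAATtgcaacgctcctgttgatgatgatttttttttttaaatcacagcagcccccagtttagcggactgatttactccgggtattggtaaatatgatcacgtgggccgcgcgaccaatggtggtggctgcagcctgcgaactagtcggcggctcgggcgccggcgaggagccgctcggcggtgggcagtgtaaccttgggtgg
The Hoxa9 promoter held the first motif 7 times and the second 1 time, and the Hoxd9 promoter held the first 1 time and the second not at all. The first motif was found in 14 of 21 Hox promoters and in 60.6% of all 33469 promoters, and the second in 2 of 21 and in 12.7%. A match is a description of letters and no evidence of binding.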

How the data were processed

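RNA of 6 spinal cord pools was amplified once by the authors and read on Agilent rat arrays, 1 array per pool. The deposited scanner files hold background-subtracted signal intensity per spot from Feature Extraction 10.1.1.1, and the authors' tables per target hold intensity without normalization between arrays. For targets with several probes those tables do not hold the brightest probe: Hoxa10 on ENMO was 15.5 there, against an NSI of 127 here. The alternative without normalization used those tables, so it changed both steps for such targets. Outlier spots were dropped, spots of a probe were averaged as log2 values, arrays were quantile-normalized over 41012 probes, and the brightest probe stood for a target. Targets well above background on 1 or more arrays were tested on the log2 scale with limma 3.58.1 in R 4.3.3, and p-values were adjusted by Benjamini-Hochberg over all of them. The fit was tested on simulated data. Contrasts were arrays with against without T cells and ENMO against EAE. Arrays lay on 2 slides with 3 each. The number of arrays limits the precision.

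Values on every array are given for measured paralogues 9 to 13, for targets measured on all 6 arrays whose arrays with and without T cells did not overlap, for the 3 widest and 3 narrowest ranges among these, and for genes with several probes or targets. Members, gene lists and tests were chosen with earlier results of these data known. RefSeq accessions matched 15 of 29 Hox targets, and 1 was renamed. The alternatives were scaling to the 75th percentile, no normalization, normexp with an offset of 50, the mean over probes, outlier spots kept, other filters, slide or antibody as a block, each array left out and, added after the data were seen, removal of a local trend within 5 rows and columns. Some items are not reported here.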

Additional observations from a re-analysis of the deposited data

How the results depend on the processing

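No paired analysis by replicate number was possible because the labels give no replicate numbers that conditions share, each condition being 1 array. With the antibody as a block, which sets ENMO beside NMO-IgG only, EAEcoI beside control IgG only and EAEcoP beside healthy control, limma called 0 Hox targets. No Hox target was called in either contrast under any normalization, filter, block or left-out array that was run, although limma called 178 targets of the whole array without ENMO and 3 without EAEcoI. Leaving out each array in turn gave 0 called Hox targets and a median Hox log2 difference of -0.54 to -0.01. The range of the caudal minus rostral deviation was then 0.52 to 1.1. With control IgG only kept, 8 to 9 posterior targets were highest on it. Leaving out another array cannot take that place away, so this count is no check of the result. Without normalization between arrays 3 of the 10 posterior targets were highest there in place of 8, and the median Hox difference turned from -0.48 to 0.19. With 2 times the spread between spots as the limit, 11 in place of 17 Hox targets exceeded it. With the spread of spots well above background as the limit, 19 did. The causes were not tested. Signal over background was a limit: 10 of 29 Hox targets were not measured on every array, and their folds are bounds or rest on few arrays.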

Other observations

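Genes that act with or upstream of Hox genes were read from lists of Hox cofactors, Polycomb and Trithorax genes and signals of the body axis, and limma called none of their members for T cells. Of 7 Hox cofactors on the array 5 were measured on at least 1 array and 1 on all 6. None of the 5 cofactors was highest on control IgG only. Of 28 genes that keep Hox clusters silent or active 26 were measured, and 5 were highest on control IgG only, where 14.2% of all measured targets were. The median log2 difference with T cells was -0.59 over the measured cofactors, -0.16 over the Polycomb and Trithorax genes and -0.18 over the axis signals, against -0.02 over all measured targets. Among the 13 measured axis signals was Cdx2, a regulator of posterior Hox genes in the embryo, chosen here after its values were seen. Its NSI was 111.8 in EAEcoP, 187.7 in EAEcoI and 47 in ENMO, and 10.6 in healthy control, 16.9 in control IgG only and 10.6 in NMO-IgG only. It was well above background on the 3 arrays with T cells and on none of the other 3. Its mean was 8.03-fold higher with T cells, with each other array taken at no less than its lowest signal well above background. The limma adjusted p of Cdx2 was 0.179.

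Inside the Hox clusters 17 further probes carried other names, and 10 of them were measured. One target on chromosome 7, whose identifier RefSeq lists as a synonym of Hoxc11, was well above background on all 6 arrays. Its NSI was 16.8 in healthy control, 62.5 in control IgG only, 18.6 in NMO-IgG only, 25.1 in EAEcoP, 20.7 in EAEcoI and 17.7 in ENMO, so that it too was highest on control IgG only. In all, 2 of these 10 were highest there, where 14.2% of all measured targets were. The other of the 2 had an NSI of 44.3 on control IgG only and 43.4 on ENMO, a step smaller than the spread between spots.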
